A study of Mus musculus with 3 samples.

Results

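The 9 genes described here (Trem2, Gpnmb, Spp1, Fabp5, Fabp4, Lgals3, Cd9, Lpl and Plin2) are foam cell and lipid-handling genes, taken by name from the 32285 genes of the deposited matrices. Each of the 9 symbols matched 1 row. They were measured in sorted immune cells of the whole mouse aorta, adventitia included, by droplet single-cell RNA sequencing with unique molecular identifiers (UMIs, tags that count each captured RNA molecule once). Every library was labelled ApoE-/- on the C57BL/6J background. The groups were a control, mice whose drinking water held homocysteine at 1.8 g/L over 4 weeks (labelled HHcy), and mice fed a western diet over 4 weeks (WD). How many mice made up a library, and their age, is not given in the sources used here. Each group was a single library, so there were no replicates and no test, and each comparison describes these libraries only.

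Foam cells are macrophages that have taken up more lipoprotein lipid than they release and store it as cholesteryl ester droplets, and they are the hallmark cell of the atherosclerotic plaque. Trem2 is a surface receptor for lipids and lipoproteins that signals through the adaptor Tyrobp. Lpl is the secreted lipase that frees fatty acids from triglyceride-rich lipoproteins, Fabp4 and Fabp5 are cytosolic carriers of fatty acids, and Plin2 coats lipid droplets. Gpnmb is a glycoprotein of lysosomes and the cell surface, Lgals3 is galectin-3, a lectin that binds sugars on glycoproteins, Cd9 is a membrane tetraspanin, and Spp1 is the secreted matrix protein osteopontin.

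In genome build GRCm38.p6 the genes lie at chr17:48346401-48352276 (Trem2), chr6:49036518-49058182 (Gpnmb), chr5:104435111-104441053 (Spp1), chr3:10012585-10016610 (Fabp5), chr3:10204342-10208616 (Fabp4), chr14:47373860-47386167 (Lgals3), chr6:125460266-125494760 (Cd9), chr8:68880555-68906932 (Lpl) and chr4:86626910-86670217 (Plin2). Fabp5 has near-identical pseudogene copies, so its counts are uncertain where reads could be shared.

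The control library held 7512 barcodes with 66789257 UMIs, the library labelled HHcy 9753 with 105180370, and the WD library 8557 with 93164076. After limits on detected genes and mitochondrial UMIs, 656, 1723 and 1370 barcodes (10.9%, 21.1% and 20.4%) were taken for doublets, because markers of several lineages met in them, and set aside, in this order of libraries, which is kept throughout. That left 5382, 6432 and 5340 cells, of which 1976, 1236 and 2681 were macrophage/monocyte-like. Ptprc, which encodes the sorted marker CD45, was detected in 93.3%, 93.9% and 95.1% of these, and Csf1r, the receptor that macrophages depend on, in 92.4%, 93.8% and 94.9%. The libraries shared 24, 20 and 23 barcode sequences in the pairs control and HHcy, control and WD, and HHcy and WD. Apoe, the gene disrupted on the labels, stood at 16.3 CPM (UMIs scaled to an equal total in every group of cells) in the control, 374 CPM in the library labelled HHcy and 19.3 CPM in WD, which goes against the label of the second. In that library 190 of 1236 macrophage/monocyte-like cells (15.4%) held 10 or more Apoe UMIs, against 1 and 2 cells in the control and WD libraries. Results are also given without such cells. That limit left most cells with any Apoe in place. An Apoe UMI was in 46.6% of macrophage/monocyte-like cells of that library, against 15.8% in the control. In B cell-like cells the shares were 22.8% and 3.72%. Leaving out the Apoe-rich cells thus does not settle the label.

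Where the 9 genes lay was read first. Macrophage/monocyte-like cells held 68.5%, 34.8% and 58.5% of all Trem2 UMIs, 73.0%, 41.4% and 71.0% of Gpnmb and 76.0%, 27.4% and 73.2% of Spp1. Barcodes left out as doublets held 24.3%, 58.3% and 34.9% of Trem2 and 18.4%, 65.0% and 21.1% of Spp1. For Gpnmb these shares were 22.3%, 40.6% and 21.8%. Of the UMIs of all genes, these barcodes held 19.0%, 40.4% and 34.1%. In the library labelled HHcy they held between 34.8% (Cd9) and 65.0% (Spp1) of the UMIs of each of the 9, with Gpnmb, Fabp5 (39.7%) and Fabp4 (37.8%) near the share of all genes, and 1379 of the 1723 combined markers of B and myeloid cells. What such barcodes hold was not tested further. One of these barcodes alone held 2070 Spp1 UMIs. Fabp5 was spread over 2 classes, with 35.8%, 24.4% and 44.3% of its UMIs in macrophage/monocyte-like and 28.6%, 19.0% and 27.9% in conventional dendritic-like cells. In the dendritic-like cells Fabp5 stood at 494, 541.5 and 1688 CPM. Fabp4, which fat cells and capillary endothelium also make, reached 8607, 1941 and 2216 CPM in the 11, 20 and 32 endothelial-like cells. Cd9 was at 692, 749 and 889 CPM in neutrophil-like cells. The stacked bars show these places for every gene.

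**Figure D1:**
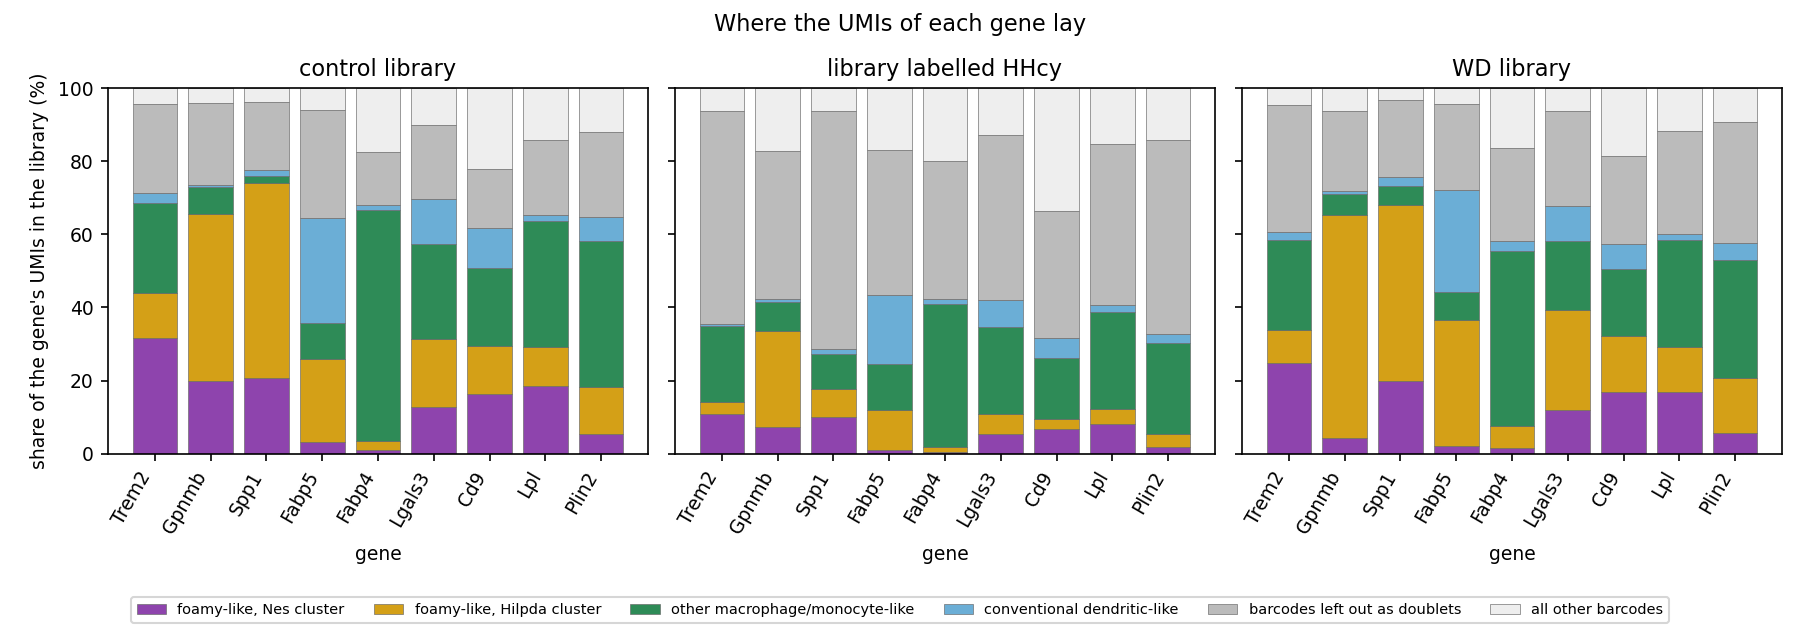
Share of each gene's UMIs (percent of its UMIs in the library) held by the foamy-like Nes and Hilpda clusters, other macrophage/monocyte-like cells, conventional dendritic-like cells, barcodes left out as doublets and all other barcodes, in 1 panel per library. The grey doublet part is widest in the library labelled HHcy, where it holds 65.0% of Spp1 UMIs against 18.4% and 21.1%, and Fabp4 has little in the foamy-like clusters in any library.

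Free RNA itself was not measured. B cell-like cells, which should lack most of these genes, were read as a background level. At medians of 7433.5, 6437.5 and 6661 UMIs per cell they held Trem2 at 2.09, 2.17 and 3.43 CPM, Gpnmb at 0.83, 0.51 and 4.74 CPM, Spp1 at 12.4, 3.67 and 20.2 CPM and Fabp5 at 6.15, 5.70 and 23.3 CPM. Cd9 was higher there, at 79.4, 38.5 and 67.1 CPM, and some B cells are known to carry it. Every gene was above its B cell level in the macrophage/monocyte-like cells of all 3 libraries.

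The macrophage/monocyte-like cells were split into 14 sub-clusters without using the 9 genes. Of these, 2 were named foamy-like from 13 other markers, such as Mmp12, Itgax and Abcg1, of which 12 or 13 stood above the other cells in each cluster and library. One cluster, led by Nes and Olfml3 among other genes and called the Nes cluster here, held 118, 50 and 275 cells. The other, the Hilpda cluster, was led by Inhba, Cxcl3, Pdpn and Hilpda and held 115, 32 and 268 cells. Together they made up 233 of 1976 cells in the control (11.8%, exact 95% Clopper-Pearson interval 10.4 to 13.3%), 82 of 1236 in the library labelled HHcy (6.63%, 5.31 to 8.17%) and 543 of 2681 in WD (20.3%, 18.7 to 21.8%). These and all other intervals cover counting error only, not the spread between mice. Intervals on UMIs also leave out the spread between cells, so they are too narrow where few cells hold most UMIs. The share was lowest in the library labelled HHcy and highest in WD under each of 7 alternative settings. At a finer first clustering the shares were 13.2%, 8.58% and 27.9%, with 143, 68 and 486 cells in the Nes cluster. An unnamed sub-cluster of 52, 51 and 28 cells, led by Mmp13, H2-M2 and Dnase1l3, scored highest of all on the foamy markers (2.51, against 2.30 and 2.29 in the named clusters) and was kept out by a naming limit chosen with the data in view, since 1 interferon gene, Ifit2, stood beside 1 foamy marker, Mmp12, among its leading genes. Counted as foamy-like it raised the shares to 14.4%, 10.8% and 21.3%. It held Cd9 at 518, 652 and 483 CPM and Lpl at 376, 529.7 and 464 CPM, but Spp1 at 15.3, 10.6 and 58.1 CPM, Gpnmb at 6.80, 0 and 3.06 CPM and Fabp5 at 3.40, 4.22 and 39.7 CPM. The summed level of the 13 markers also differed somewhat between libraries in the Nes cluster, at 4912, 4292 and 3673 CPM, so the shares rest on clusters whose markers were not at 1 level.

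In the foamy-like cells 8 of the 9 genes were at least 1.5-fold higher than in the other macrophage/monocyte-like cells and 1, Fabp4, was lower, in each of the 3 libraries. Of all genes with enough UMIs (50 or more over both sides), 13%, 13.7% and 9.59% were that much higher and 20.3%, 19.7% and 20.2% that much lower. The median log2 ratio of the 9 genes was 2.65, 2.52 and 2.12, against -0.05, -0.02 and -0.09 over all genes. The foamy-like cells were named from lipid and lysosome genes, so a high level of related genes in them is a description.

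Spp1, osteopontin, had the widest gap in the control and WD libraries. It stood at 7151 CPM in foamy-like against 40.3 CPM in other cells in the control, 1642 against 89.6 CPM in the library labelled HHcy, and 3734 against 113 CPM in WD. Gpnmb stood at 466 against 11.9 CPM, 424 against 9.96 CPM and 408 against 14.4 CPM, and its levels in foamy-like cells were within 1.5-fold of each other in the 3 libraries. Fabp5 stood at 940 against 80.0 CPM, 1267 against 133 CPM and 1796 against 155 CPM. Trem2 stood at 622 against 77.2 CPM, 617 against 90.1 CPM and 448 against 134 CPM, and its log2 ratio was 3.01, 2.78 and 1.74. Lgals3, Cd9 and Lpl had log2 ratios between 1.30 (Lpl in WD) and 2.65 (Cd9 in the control). Plin2, the droplet coat, had the lowest ratios of the 8, at 1.04, 1.09 and 0.66, the last of which went down to 0.54 over 7 alternatives. Fabp4 went the other way by -1.99, -1.06 and -1.35.

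The stretches of 250 bases upstream of the first RefSeq start are shown for Gpnmb and Spp1, 2 genes with most of their macrophage/monocyte UMIs in foamy-like cells, and for Trem2, whose level ran opposite to that of Gpnmb between the 2 foamy-like clusters. RefSeq windows (GRCm38.p6) were found for 6 of the 9 genes, and Fabp4, Fabp5 and Lpl were not among them. Capitals mark matches, on either strand, to AACCACA (the core bound by RUNX factors), GAGGAAGT (a PU.1-type ETS motif), TATAAA (the TATA box), CACGTG (an E-box bound by TFEB and related factors), CATGTG (the E-box variant of MITF and its relatives), TGACTCA (the AP-1 motif) or a direct repeat of AGGTCA with any 1 base between (bound by nuclear receptors), none of which overlapped another in these windows.
Trem2, chr17:48346151-48346400, plus strand: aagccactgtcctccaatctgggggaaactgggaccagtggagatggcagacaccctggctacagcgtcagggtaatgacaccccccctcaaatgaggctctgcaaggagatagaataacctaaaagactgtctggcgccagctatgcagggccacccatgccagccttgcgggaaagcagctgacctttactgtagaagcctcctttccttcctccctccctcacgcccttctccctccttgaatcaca
Gpnmb, chr6:49036268-49036517, plus strand: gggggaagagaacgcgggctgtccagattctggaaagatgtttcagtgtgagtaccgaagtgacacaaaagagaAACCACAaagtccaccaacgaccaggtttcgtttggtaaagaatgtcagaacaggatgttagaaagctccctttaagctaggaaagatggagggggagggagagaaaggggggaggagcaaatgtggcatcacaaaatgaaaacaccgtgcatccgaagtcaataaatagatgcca
Spp1, chr5:104434861-104435110, plus strand: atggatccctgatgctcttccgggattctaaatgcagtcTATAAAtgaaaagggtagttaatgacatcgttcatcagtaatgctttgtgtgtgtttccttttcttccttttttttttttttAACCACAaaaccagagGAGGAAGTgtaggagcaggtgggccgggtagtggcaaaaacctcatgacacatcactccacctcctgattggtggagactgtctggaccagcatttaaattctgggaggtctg
Gpnmb held AACCACA from 176 to 170 bases before its start. Spp1 held AACCACA from 129 to 123 bases, GAGGAAGT from 113 to 106 bases and TATAAA from 211 to 206 bases before its start. Trem2 held no match. In the windows searched but not shown, Cd9 held CATGTG from 38 to 33 bases before its start. Lgals3, Plin2 and a further Spp1 window held no match. Of 32851 windows of the same length, 4.40% held AACCACA, 2.44% GAGGAAGT and 12.4% TATAAA on either strand. CACGTG was in 6.02%, CATGTG in 12.3%, TGACTCA in 4.46% and the AGGTCA repeat in 0.0335%. AACCACA and GAGGAAGT were added after the windows had been read, and a match to letters is a description of the sequence, not a site in use.

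The 2 foamy-like clusters divided the genes between them. They were not alike in other markers. The Hilpda cluster scored next on classical monocyte markers (1.335, beside 2.294 for foamy), while the next score of the Nes cluster was 0.258. The macrophage marker Adgre1 stood at 82.2, 70.2 and 88.4 CPM in the Hilpda cluster against 420, 480 and 409 CPM. Cd68, another, stood at 699, 872 and 831 CPM against 730, 835 and 616 CPM. The receptor Trem2 was higher in the Nes cluster, at 916, 843 and 697 CPM against 341, 315 and 225 CPM in the Hilpda cluster (log2 ratio of Hilpda over Nes cluster -1.43, -1.42 and -1.63). Lpl leaned the same way, at 947, 851 and 667 CPM against 533, 570.3 and 448 CPM, but passed 1.5-fold in the control alone (-0.83, and -0.97 to -0.22 over 6 alternatives), and in the library labelled HHcy it turned from -0.58 to 0.39 with doublets kept and 0.28 with thinned cells. Cd9 was at -0.37, -0.92 and -0.30 on the same scale, past 1.5-fold in the library labelled HHcy alone, and in WD it turned to 0.15 at a finer clustering. In the Hilpda cluster Gpnmb, Fabp5, Fabp4 and Plin2 were higher in all 3 libraries. Fabp5 stood there at 1617, 2722 and 3212 CPM against 231, 177 and 222 CPM, and Gpnmb at 634, 775 and 725 CPM against 289, 161 and 55.0 CPM. Plin2 stood at 916, 1134 and 1012 CPM against 406, 466 and 414 CPM. Lgals3 was at 5715, 5309 and 6938 CPM against 4032, 3981 and 3323 CPM, past 1.5-fold in WD alone. In all, 5, 4 and 6 of the 9 were at least 1.5-fold higher and 2, 2 and 1 lower in the Hilpda cluster, against 12.3%, 16% and 10.1% of all genes higher and 16.5%, 18.0% and 19.5% lower.

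Spp1 was the exception to a shared order. It was higher in the Hilpda cluster in the control (10074 against 4095.5 CPM) and WD libraries (5034 against 2289 CPM), and at 1677 against 1615 CPM in the library labelled HHcy (log2 ratio 0.05, exact interval -0.08 to 0.19), where 6 alternatives gave -0.25 to 2.08. The heat map shows the split of Trem2 and Lpl from Gpnmb and Fabp5.

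**Figure D2:**
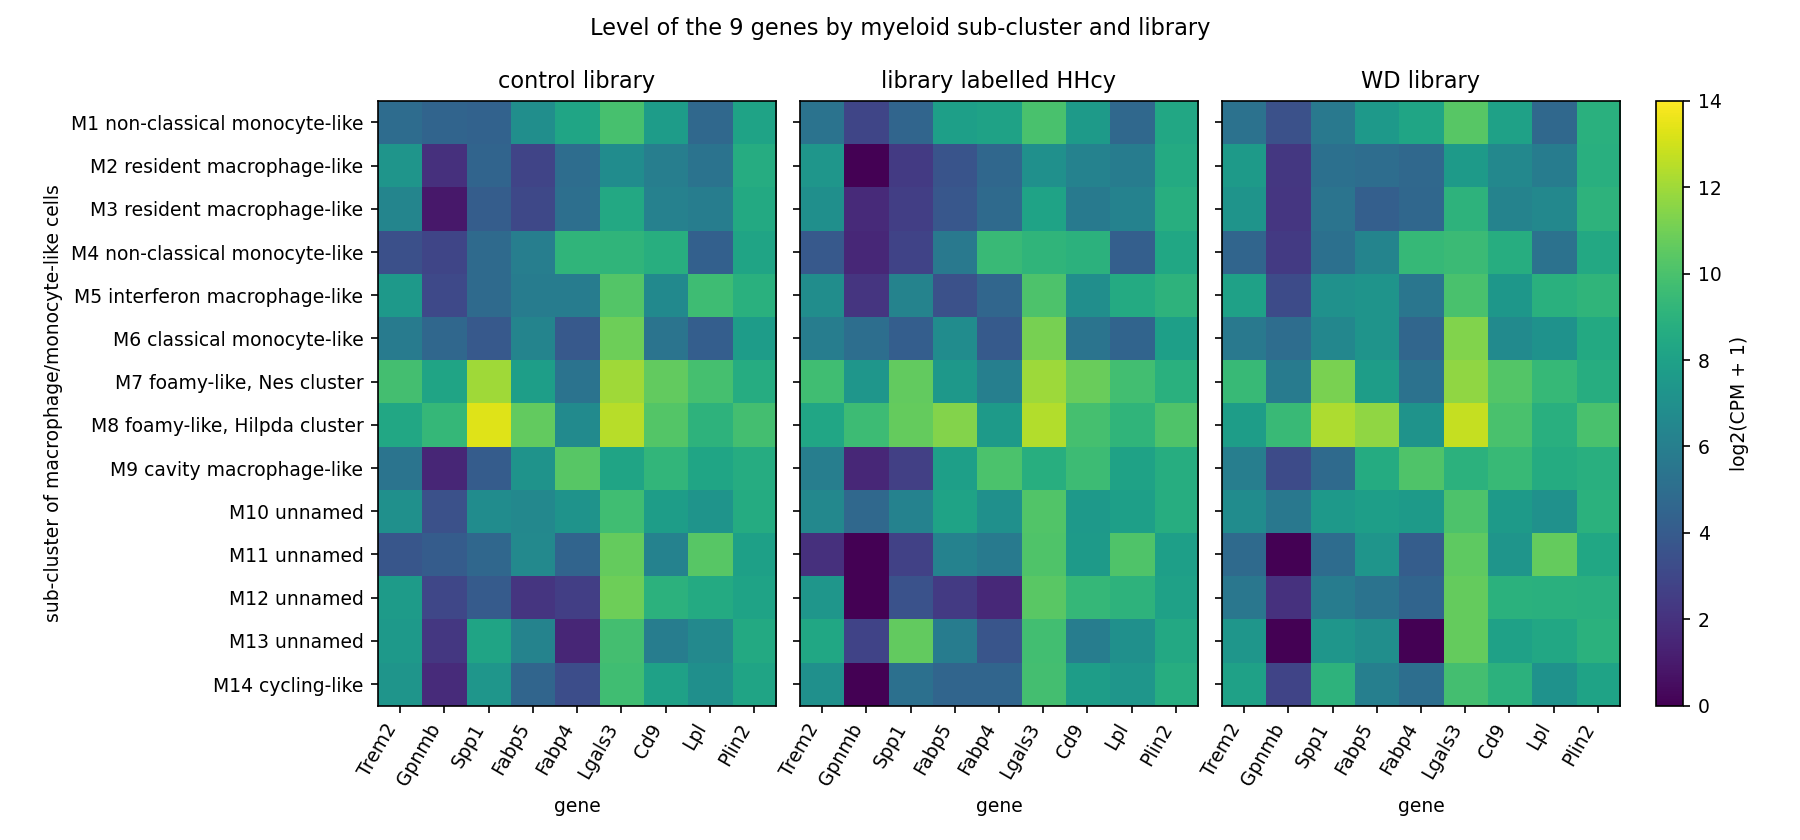
Level of the 9 genes, as log2(CPM + 1) in colour, in the 14 sub-clusters of macrophage/monocyte-like cells (rows), in 1 panel per library. Lgals3 is brightest in the rows M7 (Nes cluster) and M8 (Hilpda cluster), as is Spp1, with M13 close to them in the library labelled HHcy, Fabp4 in M9 and M4, and Lpl also in M11.

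Outside the foamy-like clusters several of the genes had a high level in other sub-clusters. Fabp4 was highest in the cavity macrophage-like sub-cluster, named from Gata6 and other markers of macrophages of the body cavities, at 1293, 1029 and 1141 CPM, and next in a non-classical monocyte-like sub-cluster, at 562.3, 729 and 668 CPM. Lpl was highest in an unnamed sub-cluster led by Retnla, at 1313, 1132 and 1683 CPM in 86, 45 and 47 cells. That was above both foamy-like clusters in every library. The best score of this sub-cluster was on the foamy markers (0.85), near that on classical monocyte markers (0.807). Its B cell markers summed to 176, 500 and 140 CPM, against 111, 152 and 76.5 CPM over all macrophage/monocyte-like cells. Interferon macrophage-like cells held Lpl at 804, 369.5 and 472 CPM, and 408 of these cells came from WD against 71 and 37. Lgals3 was at 1942, 2203 and 2599 CPM in classical monocyte-like cells and at 111, 130.1 and 197 CPM in one of the resident macrophage-like sub-clusters. Trem2 was at 154, 164 and 197 CPM in that same resident sub-cluster, and Gpnmb at 2.81, 0 and 3.87 CPM there. Plin2 was the most even gene, between 212 and 1134 CPM over all sub-clusters and libraries. In the library labelled HHcy an unnamed sub-cluster of 52 cells, led by Igfbp6, Spon1 and Il1b, held Spp1 at 1582 CPM, against 291 CPM in 44 control and 161 CPM in 8 WD cells. This came from 31 of the 52 cells, and the top cell held 187 of its 797 Spp1 UMIs.

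The question of how many cells carry a gene was asked next. Over all macrophage/monocyte-like cells, 33.1%, 38.1% and 51.0% had a Trem2 UMI, 7.54%, 6.39% and 10.6% a Gpnmb UMI and 20.7%, 11.7% and 32.6% an Spp1 UMI. Median depth was 7509, 8465.5 and 9336 UMIs per cell. With every cell thinned to 1000 UMIs, which 1958, 1229 and 2670 cells reached, the shares were 9.09%, 9.93% and 14.9% for Trem2, 3.06%, 1.46% and 3.97% for Gpnmb and 7.92%, 4.88% and 11.9% for Spp1. In thinned B cell-like cells they were 0.270%, 0.161% and 0.321% for Trem2, 0.135%, 0.0807% and 0.401% for Gpnmb and 1.62%, 0.350% and 3.85% for Spp1. Lgals3 and Plin2 were the widest, in 45.8%, 44.3% and 51.4% and in 26.9%, 27.2% and 34.5% of thinned cells. At 5 or more of the 9 genes in 1 thinned cell, the share was 27.9%, 19.5% and 21.5% of foamy-like cells, 0.290%, 0.174% and 0.752% of other macrophage/monocyte-like cells and 0 of 2222, 3716 and 1247 B cell-like cells.

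Within the Hilpda cluster, thinned cells with a Gpnmb UMI also had Fabp5 more often than cells without one. The shares were 64.7% of 34 against 25.9% of 81 control cells, 75% of 8 against 41.7% of 24 cells in the library labelled HHcy, and 73.1% of 78 against 36.8% of 190 WD cells. This was not particular to that cluster or to Fabp5. In the Nes cluster Fabp5 was in 40% of 10 against 4.63% of 108 control cells and 50% of 8 against 5.62% of 267 WD cells. In the Hilpda cluster Spp1 was in 61.8%, 50% and 53.8% of cells with Gpnmb against 40.7%, 25% and 34.2% without. Lpl went the other way there in the control (20.6% against 27.2%). Cells of 1 library are not replicates, so these shares carry no test.

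For some genes the level rested on very few cells. The 10 cells with most Spp1 held 55.4%, 58.7% and 29.7% of the Spp1 UMIs of all macrophage/monocyte-like cells, and a single control cell held 1970 of them. The 10 top cells held 39.9%, 70.1% and 22.3% of Gpnmb and 39.6%, 45.7% and 24.6% of Fabp5. For Lpl the top 10 held 23.6%, 31.0% and 14.1%, for Trem2 16.1%, 18.6% and 8.05% and for Cd9 14.3%, 20.8% and 7.11%. Lgals3 had 11.5%, 16.7% and 7.68%, Fabp4 12.6%, 16.2% and 10.2%, and Plin2, the most spread, 8.19%, 10.7% and 5.35%. The top cells of Trem2 lay in the Nes cluster (9, 8 and 10 of 10), those of Gpnmb (7, 9 and 10 of 10) and Fabp5 (10, 7 and 9 of 10) in the Hilpda cluster, and 8 of 10 for Fabp4 in the cavity macrophage-like cells in every library. Since libraries differ in their number of cells, the share of the top 1% of cells is also given: over the 9 genes its median was 27.7%, 23.1% and 21.5%. For Spp1 this share was 75.3%, 65.8% and 55.8%, highest in the control, unlike that of its top 10 cells. Top cells were picked by raw UMIs and were deep. The median of 10 top cells lay between 15689.5 and 39785.5 UMIs over genes and libraries, above the depth of all macrophage/monocyte-like cells. The part of depth was not tested. Cells with much Spp1 were a tail of their cluster. In the Hilpda cluster 67.8%, 53.1% and 67.9% of cells had an Spp1 UMI, the median cell had 408, 73.7 and 247 CPM, and the cell at the 90th percentile 24237, 6170.1 and 17104 CPM. There, 25 control, 2 HHcy-labelled and 49 WD cells with 100 or more Spp1 UMIs held 93.5%, 62.7% and 90.3% of the cluster's Spp1. Trem2 had no such tail, with a median of 537, 652 and 501 CPM in the Nes cluster and at most 81 UMIs in a foamy-like cell.

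**Figure D3:**
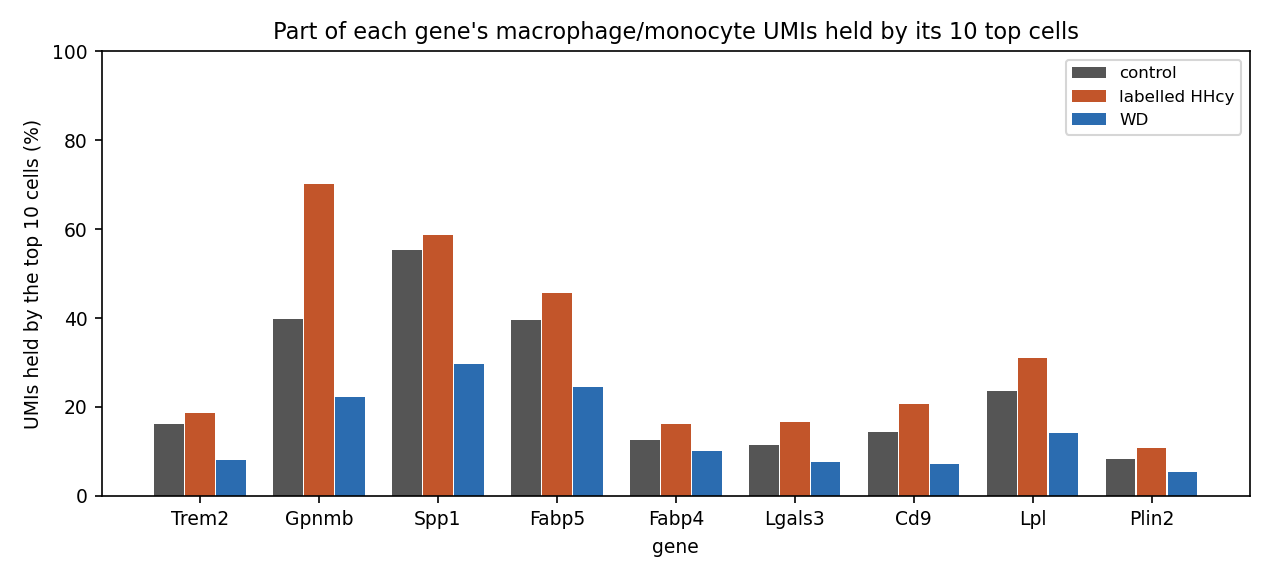
Percent of each gene's UMIs in macrophage/monocyte-like cells that lay in its 10 cells with most UMIs, per library (bars start at 0). Spp1, Gpnmb and Fabp5 have the tallest bars in each library and Plin2 the lowest, at 8.19%, 10.7% and 5.35%.

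The library labelled HHcy was then compared with the control. Apoe also differed between these 2 libraries, at 374 against 16.3 CPM. The design therefore cannot tell homocysteine apart from a difference in Apoe or in what the library is. Over all macrophage/monocyte-like cells Spp1 and Gpnmb were lower and the other 7 genes stayed within 1.5-fold. Of 11024 genes with enough UMIs, 6.81% were at least 1.5-fold apart (3.05% higher, 3.76% lower). The median log2 ratio of the 9 genes was -0.34 against -0.04 over all genes. Spp1 stood at 1328 CPM in control cells against 229 CPM (log2 ratio -2.54, exact interval -2.60 to -2.48). With the doublet barcodes kept the ratio was -1.95, with thinned cells -1.67, and without the cells of 10 or more Apoe UMIs it was -2.22. Of the 190 HHcy-labelled cells which that Apoe limit left out, 63 and 45 lay in resident macrophage-like sub-clusters. A further 35 were cavity macrophage-like and 4 foamy-like, so the limit also changed the mix of sub-clusters. Keeping doublet barcodes gave 2031 and 1500 macrophage/monocyte-like cells in place of 1976 and 1236. An unnamed cluster then held 216 control and 666 HHcy-labelled barcodes outside these cells. Wherever it is used, that setting thus returned only part of the doublet barcodes to these cells. Over whole libraries, with no cell left out, Spp1 was at 468 and 97.2 CPM, but B cell-like cells were 2230 of 5382 cells used in the control and 3724 of 6432 in the other. Gpnmb stood at 94.1 and 47.0 CPM (-1.0, -1.14 to -0.86), at -1.55 with doublets kept, at -2.0 without its 10 top cells and at -0.78 without Apoe-rich cells. Those 10 top cells, out of 1976 control and 1236 HHcy-labelled cells, held 39.9% and 70.1% of Gpnmb. The value without them thus rests on unequal cuts. Trem2 was at 176 and 137 CPM (-0.36), Lgals3 at 1619 and 1300.1 CPM (-0.32), Cd9 at 440.4 and 348 CPM (-0.34) and Lpl at 291 and 206 CPM (-0.50). Fabp5 lay at -0.01, Fabp4 at -0.07 and Plin2 at 0.01, but with doublets kept Fabp5 was at -0.62.

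Within the foamy-like cells Spp1 was again lower, and Gpnmb did not pass 1.5-fold unless its top cells were left out. Spp1 was at 7151 and 1642 CPM (-2.12, -2.19 to -2.05; -1.32 with doublets kept), at -1.34 in the Nes and -2.59 in the Hilpda cluster. The last value rests on 32 cells and was -0.95 with the doublet barcodes kept. Gpnmb was at 466 and 424 CPM (-0.14), and at -0.86 without the 5% of cells with most of it. In the Nes cluster it was at 289 and 161 CPM (-0.85, and -3.01 to -0.66 over 7 alternatives), from 23 of 118 and 7 of 50 cells with a UMI. Trem2, Cd9 and Lpl were each at -0.01. Fabp4 was higher, at 72.6 and 119 CPM (0.72, 0.40 to 1.03), from 235 and 131 UMIs, but 0.47 at a finer clustering and 0.43 with the sub-cluster led by Mmp13 counted as foamy-like. Fabp5 in the Hilpda cluster was at 1617 and 2722 CPM (0.75), and 0.24 at the finer clustering. In this comparison 1 gene was higher and 1 lower, where 11.3% of all genes were past 1.5-fold. In the Nes cluster 1 gene was higher and 2 lower (11.4% of all genes past 1.5-fold) and in the Hilpda cluster 2 higher and 1 lower (18.2%). With the level of each sub-cluster weighted by the control's mix of sub-clusters, the library labelled HHcy had Gpnmb at -0.034, Spp1 at -1.88 and Fabp5 at 0.69. Outside the foamy-like clusters Spp1 was higher, at 40.3 and 89.6 CPM (1.15, 1.00 to 1.30), and Fabp5 too, at 80.0 and 133 CPM (0.73), with 6.68% of genes past 1.5-fold. Of those 999 Spp1 UMIs 797 lay in the sub-cluster led by Igfbp6 and Spon1, and without it Spp1 was lower, at 30.8 and 19.0 CPM (-0.70, -0.95 to -0.46).

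In WD against the control, Fabp5 alone of the 9 passed 1.5-fold over all macrophage/monocyte-like cells, and it was higher. It stood at 236 CPM in the control and 629 CPM in WD (log2 ratio 1.42, 1.37 to 1.46), and between 0.93 and 1.73 under 10 alternatives. The gap was not particular to these cells, and over whole libraries Fabp5 stood at 176 and 460 CPM. In WD it was also higher in conventional dendritic-like, B cell-like, neutrophil-like and T, NK and innate lymphoid-like cells. It was lower in the smaller endothelial-like, fibroblast-like and mast-like classes. Of 11744 genes, 8.16% were past 1.5-fold (4.22% higher, 3.93% lower). The median of the 9 genes was 0.35, against -0.02 over all genes. Plin2 was at 387 and 538 CPM (0.48), Lgals3 at 1619 and 2231 CPM (0.46), Gpnmb at 94.1 and 128 CPM (0.45) and Trem2 at 176 and 225 CPM (0.35). Spp1 was at 1328 and 1159.8 CPM (-0.20), and Fabp4 at 249 and 195 CPM (-0.35). Both comparisons use the same control library, so they are not independent. Set directly against the library labelled HHcy, 6 of the 9 were at least 1.5-fold higher in WD and none lower, where 10.0% of all genes were past 1.5-fold (5.77% higher, 4.23% lower). Without Apoe-rich cells 5 were higher (10.4% of all genes past 1.5-fold), within foamy-like cells 1 (15.1%), and outside them 0 (8.56%), with none lower in each case.

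**Figure D4:**
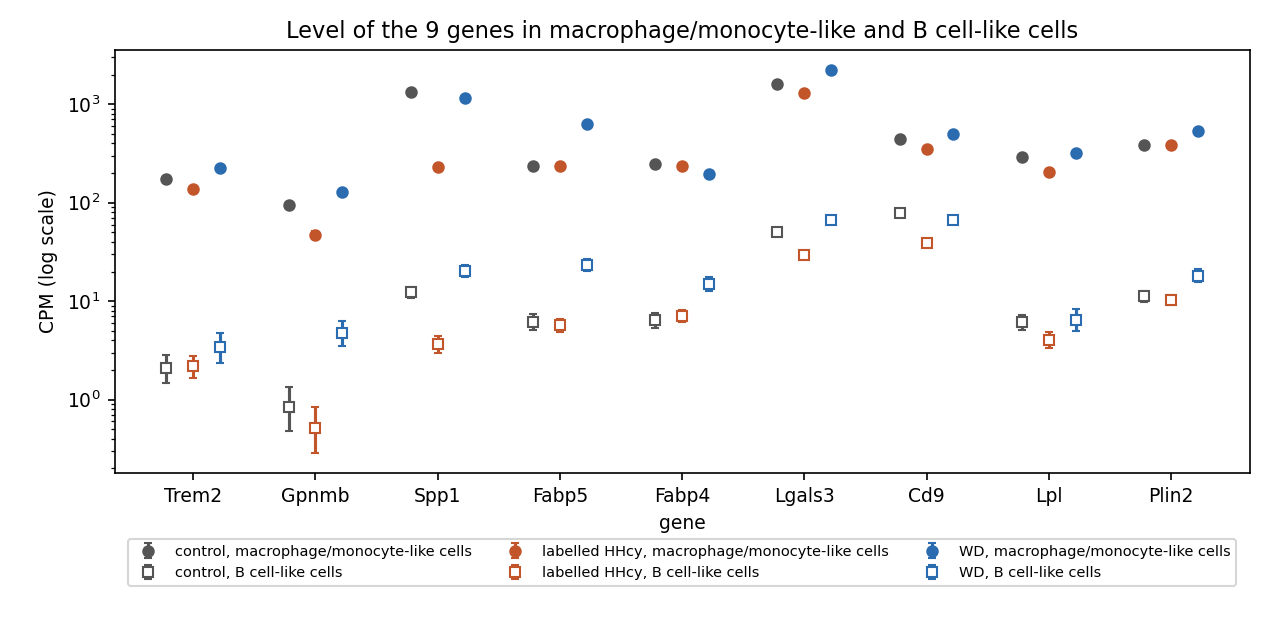
Level of the 9 genes in CPM (log axis) in macrophage/monocyte-like cells (filled circles) and B cell-like cells (open squares) of the 3 libraries, with exact 95% Poisson intervals for counting error. Spp1 is lowest in the library labelled HHcy and Fabp5 is highest in WD, and the B cell level is below the macrophage/monocyte level for each gene.

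Within foamy-like cells of WD, Fabp5 was again higher, at 940 and 1796 CPM (0.93, 0.88 to 0.99), and Spp1 lower, at 7151 and 3734 CPM (-0.94, -0.96 to -0.91; -0.49 with thinned cells), where 8.49% of all genes were past 1.5-fold. In the Nes cluster 0 of the 9 were higher and 2 lower (9.84% of all genes past 1.5-fold), and in the Hilpda cluster 1 was higher and 2 lower (11%). Among foamy-like cells the Fabp5 gap lay in the Hilpda cluster (0.99), and in the Nes cluster Fabp5 was at 231 and 222 CPM. The median Hilpda cluster cell had 202 CPM of Fabp5 in the control and 763 CPM in WD. Trem2 was at 622 and 448 CPM (-0.47) in foamy-like cells, Lpl at 735 and 552 CPM (-0.41) and Cd9 at 1414 and 1107 CPM (-0.35). Gpnmb in the Nes cluster was at 289 and 55.0 CPM (-2.40, and -3.53 to -1.56 over 7 alternatives), a level held by 23 of 118 control and 35 of 275 WD cells. Outside the foamy-like clusters 3 genes were higher, where 8.68% of all genes were past 1.5-fold: Spp1 at 40.3 and 113 CPM (1.49), Fabp5 at 80.0 and 155 CPM (0.95) and Trem2 at 77.2 and 134 CPM (0.79). These 3 gaps were read at the main clustering, and at the finer one 27.9% of WD macrophage/monocyte-like cells counted as foamy-like. The B cell-like level moved with Spp1 (12.4 and 20.2 CPM) and Fabp5 (6.15 and 23.3 CPM), and the part of free RNA in these gaps was not tested. Given the control's mix of sub-clusters, WD had Fabp5 at 0.93, Spp1 at -0.86 and a median over the 9 genes of -0.016. The foamy-like share of cells was thus higher in WD (11.8% and 20.3%) while the level of Spp1 inside them was lower.

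**Figure D5:**
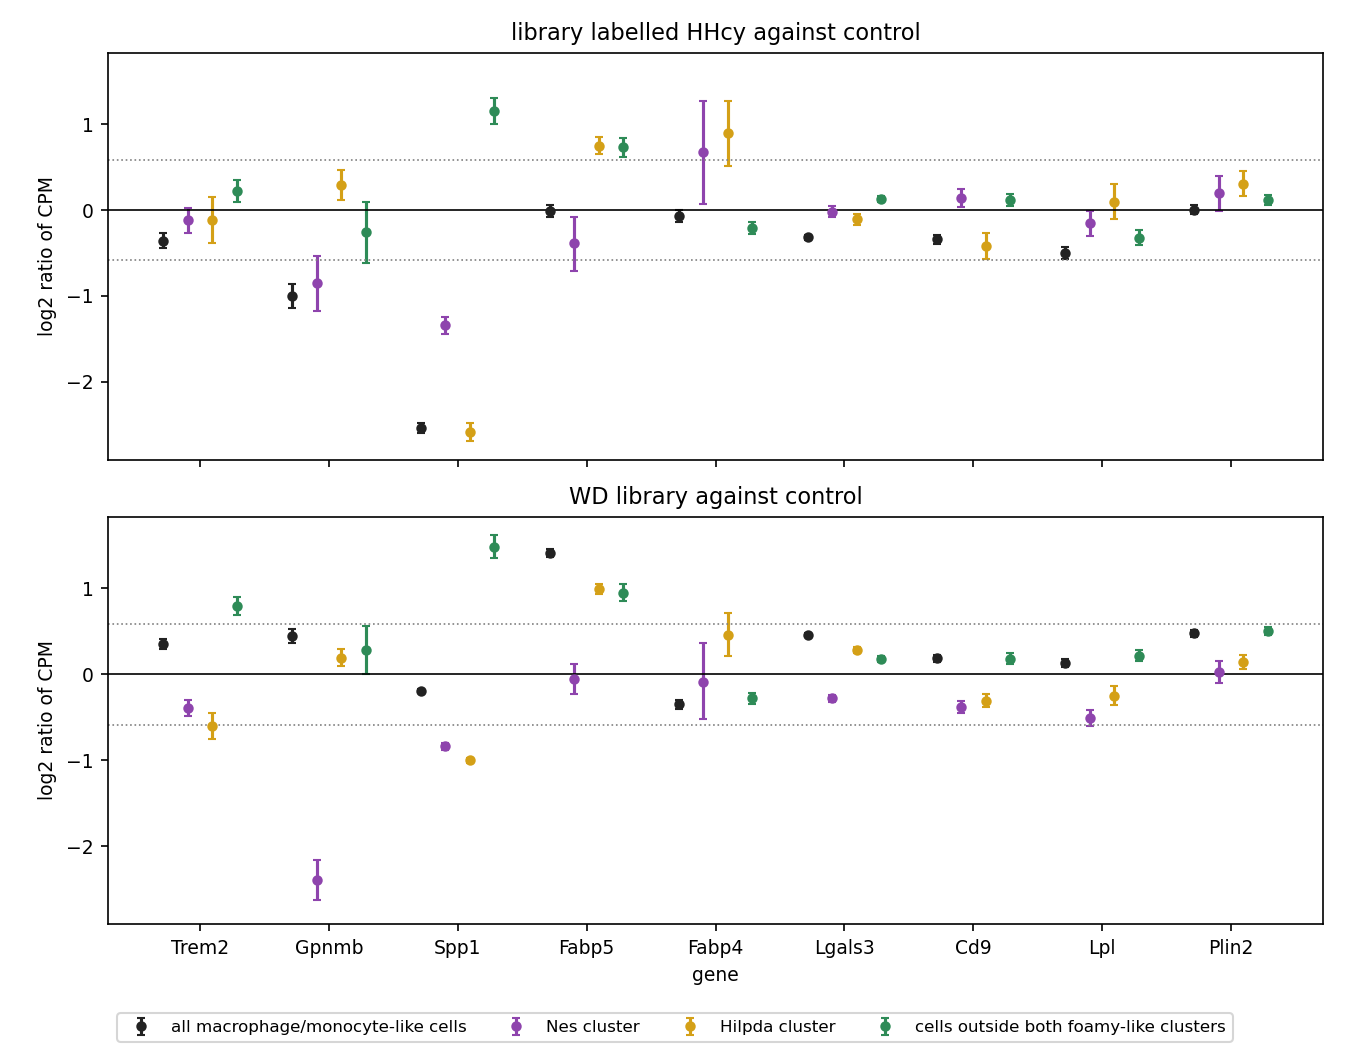
Log2 ratio of CPM to the control for the 9 genes, for the library labelled HHcy (top) and WD (bottom), in all macrophage/monocyte-like cells, in each foamy-like cluster and in the cells outside both, with exact 95% intervals for counting error. Dotted lines mark 1.5-fold; Spp1 lies below 0 in both foamy-like clusters and above 0 outside them in both panels, the latter in the top panel only with the sub-cluster led by Igfbp6 and Spon1 counted.

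Markers of other cells were read in the 2 foamy-like clusters. The summed level of 11 B cell markers was 74.6, 107 and 55.9 CPM in the Nes and 86.4, 89.4 and 51.6 CPM in the Hilpda cluster, with no marker at 0. The 12 neutrophil markers summed to 92.2, 220.03 and 127 CPM and to 153, 221 and 311 CPM, with 0 to 4 of them at 0. Over all macrophage/monocyte-like cells the neutrophil markers summed to 257, 622 and 328 CPM. The B cell markers summed there to 111, 152 and 76.5 CPM. Both lists were thus lower in the foamy-like clusters. The 28 markers of T, NK and innate lymphoid cells summed to 92.9, 171 and 184 CPM in the Nes and 96.1, 85.1 and 189 CPM in the Hilpda cluster, with 4 to 22 at 0. Over all macrophage/monocyte-like cells they summed to 75.8, 114 and 116 CPM. That was below both clusters in the control and WD, and below the Nes cluster alone in the library labelled HHcy. The 6 fibroblast markers summed to 11.4, 15.9 and 23.0 CPM and to 6.04, 14.9 and 21.1 CPM, with 0 to 2 at 0. The 6 adipocyte markers summed to at most 9.07 CPM with 4 or 5 of them at 0, and the 7 endothelial markers to 3.16 to 48.9 CPM. Their part in the levels of the 9 genes was not tested. Adipoq, a defining marker of fat cells, was at 0 in the Nes cluster of the library labelled HHcy and WD and in the Hilpda cluster of the control and the library labelled HHcy.

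Of 41 other lipid and lysosome genes (such as Abca1, Lipa, Npc2, Cd36 and Ctsd), 27, 24 and 25 were at least 1.5-fold higher in foamy-like than in other cells and 4, 3 and 3 lower, of 40, 39 and 41 with enough UMIs, beside 13%, 13.7% and 9.59% of all genes higher and 20.3%, 19.7% and 20.2% lower. Without the 8 that had served as naming markers these counts were 19, 17 and 17 higher of 32, 32 and 33. The scavenger receptors Cd36 and Scarb1 and the triglyceride-forming enzyme Dgat2 were lower in all 3 libraries. In the library labelled HHcy against the control, 1 of 41 was higher and 3 lower over all macrophage/monocyte-like cells, with a median log2 ratio of -0.10, beside 3.05% of all genes higher and 3.76% lower. The 1 higher was Fabp3, at 0.62 from 38 and 40 UMIs, a call that so few UMIs do not settle (exact interval -0.06 to 1.30). Among genes with 100 or more UMIs, the lowest were the bone and lysosome protease Ctsk (-1.74), the aminopeptidase Anpep (-1.22) and the proton pump subunit Atp6v0d2 (-0.66), and the highest ratios, none past 1.5-fold, were those of Tfec (0.54), Hilpda (0.38) and Pnpla2 (0.24). In WD 3 of 41 were higher and 1 lower, with a median of 0.17, beside 4.22% and 3.93% of all genes. Fabp3, another fatty acid carrier, was highest (1.38, from 38 and 167 UMIs), then Hilpda (0.59), and Dgat2 was lowest (-1.0), then Ctsk (-0.55) and Cd36 (-0.50).

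The genes with the most similar pattern to each of the 9 were sought over 38 profiles among 10451 genes, with Pearson's r of log2(CPM + 1) as a description. The profiles were the sub-clusters and the conventional dendritic-like and neutrophil-like classes, each by library, with 50 or more cells. So r also takes in differences between these classes and the macrophage/monocyte-like cells. Profiles of 1 library share its depth and preparation. Trem2 was most like Cyfip1 (0.92), Atp6v1a (0.89) and Aopep (0.89), and Spp1 like Pdpn (0.92), Npy (0.76) and Cux1 (0.76). Gpnmb was most like Esd (0.80), Npy (0.77) and Psmb6 (0.77), and Fabp5 like the glycolytic enzymes Ldha (0.79) and Pgam1 (0.77) and the repressor Bhlhe40 (0.76). Fabp4 was most like Epha4 (0.86), Dnah12 (0.85) and Tgfbr3 (0.83), and Lpl like Pld3 (0.85), Nceh1 (0.81), an enzyme that hydrolyses cholesteryl ester, and Myo1e (0.80). Lgals3 was most like Rnh1 (0.88), Dynll1 (0.85) and Aprt (0.85), and Cd9 like Igf2r (0.79), Mthfs (0.77) and Pdlim7 (0.76). Plin2 was most like the protease Ctsb (0.86), ferritin light chain Ftl1 (0.83) and its copy Ftl1-ps1 (0.81), whose reads may be shared. Among the 9 themselves, r ranged from 0.81 (Gpnmb and Lgals3) to -0.29 (Trem2 and Fabp4), with Gpnmb and Spp1 at 0.76 and Trem2 and Lpl at 0.66.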

How the data were processed

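The matrices hold raw UMI counts per gene and barcode, which the authors deposited without normalization. Per the file headers they were made with Cell Ranger 4.0.0, while the submitters' processing notes name Cell Ranger 2.2.0 and mm10. Samples were grouped by their labels, with 0 columns outside the series. The genes and lists were chosen with earlier results of these data known, and the limits for naming and doublets were chosen with the data in view.

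Barcodes with at least 200 genes and at most 10% mitochondrial UMIs were kept, and those with markers of more than 1 of 5 lineages left out, a rule that cannot mark doublets within a lineage. Cells were clustered (Python 3.11.15, numpy 2.4.6, scipy 1.17.1, scikit-learn 1.9.0, leidenalg 0.10.2, pandas 2.3.3) on 2000 variable genes without the 9 members, 30 components, 20 neighbours and Leiden resolution 1, and named from fixed markers. UMIs were summed per class and library and given as CPM of that class. Ratios have exact conditional binomial and levels exact Poisson 95% intervals. A gene counted as past the fold at 1.5-fold with 50 or more UMIs over both sides. All 9 members are named. Of the other list the 3 highest and 3 lowest log2 ratios with 100 or more UMIs are named (1 of them is not reported here), and for likeness the 3 highest r among genes with 200 or more UMIs. The ratios and their intervals were tested on simulated, independent UMI sums. Doublet marking, clustering, naming, thinning and the spread between cells were not simulated. Alternatives changed the mitochondrial limit, doublets, clustering, depth, UMI minimum, top cells, Apoe-rich cells and the mix of sub-clusters.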

Additional observations from a re-analysis of the deposited data

How the results depend on the processing

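No paired analysis was possible because there was 1 library per group, and leaving out a replicate was not possible for the same reason. The median log2 ratio of the 9 genes in the library labelled HHcy against the control (-0.34) was -0.62 with doublet barcodes kept, -0.17 with thinned cells, -0.27 without Apoe-rich cells, -0.40 without the 10 top cells, -0.034 with the control's mix of sub-clusters and 0.12 without the foamy-like clusters, an alternative chosen after seeing the data. For WD (0.35) it was 0.48 without the top cells, -0.016 with the control's mix and 0.28 without the foamy-like clusters. The 10 top cells were cut from 1976 control, 1236 HHcy-labelled and 2681 WD cells, so both values without them rest on unequal cuts. Spp1 in the library labelled HHcy turned from -2.54 to 1.15 without the foamy-like clusters, and Fabp4 in its Nes cluster from 0.68 to -1.08 (-6.65 to 2.08) when thinned. The foamy-like median against other cells was 2.51 (control), 2.32 (HHcy) and 1.87 (WD) at Leiden resolution 2. In the library labelled HHcy it was 2.87 with doublets kept, 2.64 with the 9 genes allowed in the clustering and 2.73 without Apoe-rich cells, and in WD 2.26 when thinned. With the sub-cluster led by Mmp13 counted as foamy-like, an alternative chosen after seeing the data, it was 2.59 (control), 2.38 (HHcy) and 2.11 (WD). The median share of the top 1% of cells was 32.0%, 25.2% and 24.2% at a mitochondrial limit of 20% and 26.0%, 20.6% and 18.6% with doublets kept. With a minimum of 10 UMIs, 13.9% (HHcy) and 15.2% (WD) of genes passed 1.5-fold. Depth limits the library labelled HHcy in its Nes cluster, where 50 cells held 40 Fabp4, 101 Gpnmb and 111 Fabp5 UMIs, and in its Hilpda cluster, where 32 cells held 91 Fabp4 and 148 Trem2 UMIs.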
